A study of Rattus norvegicus with 6 samples.

Results

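The genes described here encode proteins that carry other molecules into mitochondria, and they fall into 2 classes. Translocases were the genes whose symbol starts with Timm or Tomm followed by a digit, and carriers were the genes whose symbol starts with Slc25a. Of 21553 genes named in the deposited count table, 24 were translocases and 46 were carriers. A minimum of 10 counts over all libraries kept 23 translocases and 43 carriers, 66 genes in all. The rule used only symbols and counts summed over all libraries, but it was set with earlier results of these data known. RNA had been sequenced from INS-1 cells, a rat insulinoma line that secretes insulin, at passages 7 to 15. In the 3 INS-SMA libraries, labelled SMA overexpression, the cells carry a lentiviral α-SMA gene (ACTA2, the smooth muscle form of actin). The 3 INS-MOCK libraries have the genotype wild type, and the labels do not say whether these cells received a virus. The labels also do not say how many transduced populations lie behind the INS-SMA libraries, which the series calls biological replicates.

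Nearly all mitochondrial proteins are made in the cytosol and imported. The TOM complex of the outer membrane is the common entry gate, and TIM23 in the inner membrane passes proteins with a presequence on to the matrix. Small TIM chaperones and TIM22 insert multispanning inner membrane proteins, among them the SLC25 carriers, which then exchange nucleotides, phosphate, organic acids, amino acids and cofactors between cytosol and matrix. In beta cells the ATP that leaves mitochondria through ADP/ATP carriers closes potassium channels and starts insulin secretion, and export of citrate and malate is linked to the same response.

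The libraries held 34471794 to 37466920 counts in INS-MOCK and 24719503 to 39608609 in INS-SMA, and 15851326 to 25075476 lay in tested genes. Levels are given in CPM, counts scaled to a common library size with TMM factors. Changes are log2 ratios of INS-SMA over INS-MOCK, with adjusted p from edgeR's quasi-likelihood test over all tested genes. CPM were not divided by transcript length, because the table gives none, so levels were compared between libraries and not between genes. Reads of a member and of a gene overlapping it on the other strand may not be separated, since the strand setting is not known. A floor of 3 counts per library was 0.117 to 0.180 CPM. Human ACTA2 had 135, 103 and 167 counts in INS-MOCK and 941093, 1141322 and 1139159 in INS-SMA, as the labels say. The 7 beta cell markers summed to 31967 to 34668 CPM in INS-MOCK and 2821 to 3526 CPM in INS-SMA, and all 7 were detected. Ins1, Ins2 and Chga made up most of these sums. All but Iapp fell, with log2 fold changes from -4.29 (Ins2) to -1.06 (Pdx1). Iapp had 29, 22 and 18 counts in INS-MOCK and 28, 256 and 30 in INS-SMA and was not called (2.30, edgeR adjusted p = 0.0979). The 3 immune markers summed to 0.124 to 0.896 and 1.70 to 2.16 CPM, and the 3 fibroblast markers to 13.7 to 16.9 and 11 to 12.4 CPM. Of the immune markers, Ptprc was at 0 in INS-MOCK and had 31, 34 and 29 counts in INS-SMA. Cd68 had 3, 20 and 16 counts in INS-MOCK and 5, 3 and 13 in INS-SMA and was not called (-0.82, edgeR adjusted p = 0.440). Cd14 had 2 counts in all and was not tested. Among the fibroblast markers, Pdgfra fell from 13.4, 16.9 and 15.7 to 8.05, 8.31 and 8.36 CPM (-0.89, adjusted p = 0.00236), and Col3a1 rose, from 3, 0 and 2 counts to 46, 80 and 54 counts (adjusted p = 0.00224). Col1a1 had 4, 0 and 0 counts in INS-MOCK and 26, 3 and 13 in INS-SMA and was not tested. Of 2 endothelial and 3 acinar markers, 1 each was among the named rows, at 0 in INS-MOCK and at most 0.240 and 0.184 CPM in INS-SMA. In bulk RNA, a lower level in every cell and the loss of expression in some cells cannot be told apart.

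Translocase genes were mostly lower in INS-SMA or did not pass the test, whereas carriers moved in both directions. Among the 23 tested translocases, 10 fell and 1, Timm44, rose at an edgeR adjusted p below 0.05, which is 43.5% and 4.35%. Over all 13363 tested genes the shares were 27.0% lower and 28.1% higher. Among the 36 tested carriers, 14 fell and 10 rose, or 38.9% and 27.8%. The share of carriers that rose was thus near that of all genes. The median log2 fold change of INS-SMA over INS-MOCK was -0.27 for translocases, -0.18 for carriers and 0.033 for all tested genes. Carriers were spread more widely, with quartiles at -0.85 and 0.76, close to those of all genes (-0.66 and 0.80), against -0.61 and -0.07 for translocases. At least 2-fold falls were seen in 3 translocases and 5 carriers (all genes 12.5%). At least 2-fold rises were seen in 7 carriers and 0 translocases (all genes 15.6%). The groups did not overlap in 12 translocases that were lower and 1 that was higher, and in 14 and 11 carriers. In all tested genes these shares were 31.9% and 33.5%, or 65.3% in either direction. The difference between the classes was not tested as such. When 1 library at a time was left out, 8 to 9 translocases and 13 to 14 carriers fell, and Timm44 and 7 to 10 carriers rose.

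**Figure D1:**
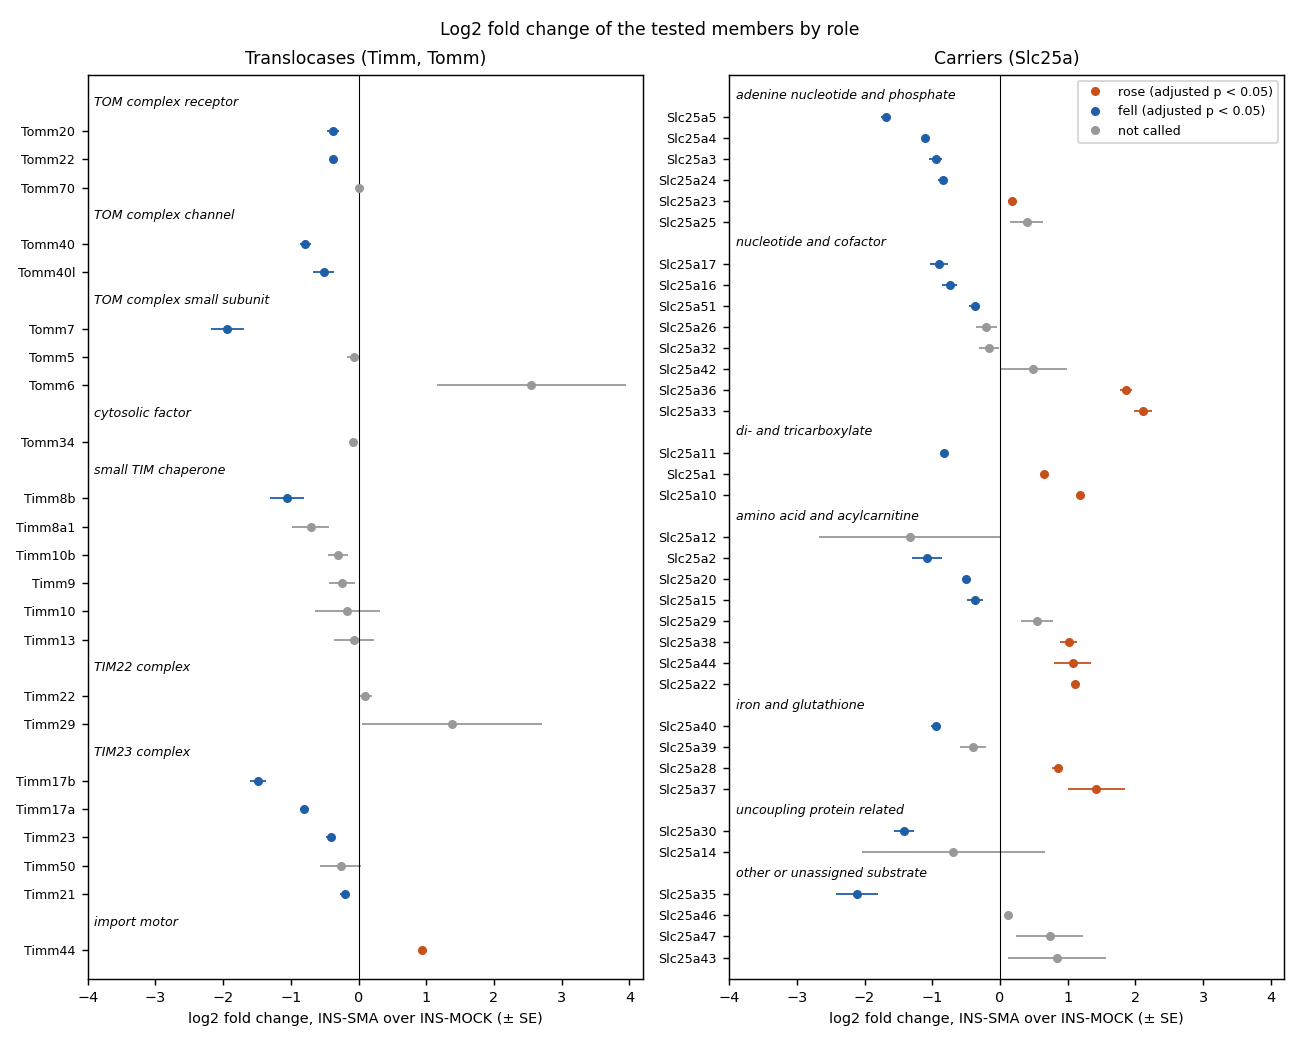
Log2 fold change of INS-SMA over INS-MOCK (horizontal axis) with its standard error for the tested members that are reported, grouped by role, with translocases on the left and carriers on the right. Most translocase points lie left of 0 and Timm44 is the only one coloured as a rise, whereas carriers lie on both sides of 0.

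Genes encoded by mitochondrial DNA, which are not imported, took 7.30 to 8.15% of the named counts in INS-MOCK and 3.51 to 3.82% in INS-SMA. The part of this share, and of the marker levels given above, in the changes described here was not tested. Summed over all translocases, the level was 1258, 1188 and 1246 CPM in INS-MOCK and 1068, 1165 and 1156 CPM in INS-SMA. Summed over all carriers, it was 3756, 3681 and 3737 CPM and 2637, 2760.4 and 2892 CPM. The ADP/ATP carrier genes Slc25a4 and Slc25a5 and the phosphate carrier gene Slc25a3 made up 2005 to 2077 CPM of the carrier sum in INS-MOCK and 804 to 944 CPM in INS-SMA. The other carriers together were at 1649.6 to 1751 CPM in INS-MOCK and 1833 to 1948 CPM in INS-SMA, so the lower carrier sum came from these 3 genes.

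Promoter sequences are shown for called members in which an ETS or E-box match lay within 100 bases before the start, all but Slc25a2, whose E-box lay 16 bases before it. RefSeq (rat assembly GRCr8) gave windows from 250 bases before to 50 bases after the annotated start for 60 of the 70 members in the table. Both strands were searched for CCGGAAG, the core bound by ETS factors such as GABP. It was found in 15 members (25%) and in 8.75% of all 33469 windows, which include genes of every kind. By call, 8 of 23 members that fell, 1 of 9 that rose and 4 of 18 that did not pass the test held it. The E-box CACGTG, bound by USF and MYC family factors, was in 8 members (all windows 6.42%), of which 2, Slc25a2 and Slc25a51, fell and 1, Slc25a33, rose. The amino acid response letters TGATGNAA were in 2 members (all windows 3.98%). Such matches are descriptions of sequence and do not show binding. The 100 bases before the annotated start follow for 6 members that fell (4 translocases and 2 carriers) and for Slc25a33 and Slc25a38, which rose. Capitals mark the ETS letters of either strand, or the E-box in Slc25a51 and Slc25a33. In Tomm22 an ETS match on each strand overlaps the other, and Timm23 holds 2 matches. A further Tomm22 match begins 6 bases before the start, runs past the printed bases and is not capitalised.
Timm23 (chr16:7442620-7442719, minus strand): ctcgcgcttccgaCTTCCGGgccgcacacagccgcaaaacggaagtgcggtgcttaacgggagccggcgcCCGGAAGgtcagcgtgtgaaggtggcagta
Tomm22 (chr7:113107206-113107305, plus strand): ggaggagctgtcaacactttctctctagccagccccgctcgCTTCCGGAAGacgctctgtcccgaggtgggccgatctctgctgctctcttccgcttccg
Tomm20 (chr19:71832421-71832520, minus strand): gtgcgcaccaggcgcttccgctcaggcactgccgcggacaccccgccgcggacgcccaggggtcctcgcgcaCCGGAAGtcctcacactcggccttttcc
Timm8b (chr8:59850637-59850736, plus strand): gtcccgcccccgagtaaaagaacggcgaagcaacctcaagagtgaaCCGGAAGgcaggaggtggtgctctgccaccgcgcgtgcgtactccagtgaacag
Slc25a20 (chr8:118243473-118243572, plus strand): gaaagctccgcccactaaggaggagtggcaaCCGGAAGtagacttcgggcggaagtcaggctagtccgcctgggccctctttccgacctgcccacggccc
Slc25a51 (chr5:64459005-64459104, minus strand): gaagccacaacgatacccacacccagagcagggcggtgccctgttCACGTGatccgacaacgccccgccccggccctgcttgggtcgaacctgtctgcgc
Slc25a33 (chr5:165502974-165503073, minus strand): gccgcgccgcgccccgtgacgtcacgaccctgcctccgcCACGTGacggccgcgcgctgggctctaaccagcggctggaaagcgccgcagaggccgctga
Slc25a38 (chr8:128713080-128713179, plus strand): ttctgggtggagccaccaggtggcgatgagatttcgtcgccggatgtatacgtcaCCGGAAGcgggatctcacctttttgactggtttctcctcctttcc

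In the TOM complex, the pore and 2 of 3 receptors were lower. Tomm40 (chromosome 1, 80618154 to 80630038, minus strand, coordinates of the deposited table), which forms the pore, was at 56.7, 52.5 and 60.4 CPM in INS-MOCK and at 31.8, 31.5 and 35.0 CPM in INS-SMA. The groups did not overlap, and the fit gave a change of -0.79 log2 units (SE 0.082, adjusted p = 5.36e-04 by edgeR). Tomm40l, a second pore gene, was at 10.1, 12.3 and 12.1 CPM in INS-MOCK and 7.15, 8.99 and 7.93 CPM in INS-SMA (-0.52, SE 0.16, adjusted p = 0.0366). Its groups did not overlap, but its adjusted p was 0.0893 to 0.0970 without INS-MOCK replicate 2 or 3 or INS-SMA replicate 1 or 3. The receptor Tomm22 fell from 143, 147 and 151 to 114, 114 and 113 CPM, a small change with little spread (-0.37, SE 0.035, adjusted p = 3.58e-04). The presequence receptor Tomm20 was at 105, 109 and 93.3 CPM in INS-MOCK and 73.2, 77.3 and 86.1 CPM in INS-SMA (-0.38, adjusted p = 0.0139). Its adjusted p was 0.0538 when, for every gene, only rows with an Ensembl transcript identifier were counted. All counts of Tomm20 lie in 1 such row, so its own counts were the same in that alternative. Tomm70, the receptor that carrier precursors use, was at 171, 167 and 158 CPM in INS-MOCK and 154, 173 and 174 CPM in INS-SMA, with overlapping groups and a log2 fold change of 0.011 (adjusted p = 0.896) that was -0.0076 with upper-quartile factors.

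The small TOM subunits, which stabilise the complex, differed from each other. Tomm7 (chromosome 4, 7835949 to 7842789, plus strand) showed the largest fall of any translocase, from 14.8, 15.5 and 22.2 CPM to 5.17, 3.62 and 4.90 CPM. Every INS-SMA library was below every INS-MOCK library, and the log2 fold change was -1.94 (SE 0.24, edgeR adjusted p = 0.00112). Tomm5 did not pass, at 27.1, 26.0 and 28.1 CPM in INS-MOCK and 28.2, 24.1 and 24.9 CPM in INS-SMA (-0.072, adjusted p = 0.552). Tomm6 had 28, 43 and 20 counts in INS-MOCK and 7, 40 and 535 in INS-SMA, so its log2 fold change of 2.55 rested on INS-SMA replicate 3 and was -0.20 without it. It did not pass in edgeR (adjusted p = 0.179), and DESeq2 gave 0.0444, with adjusted p up to 0.848 over the alternatives. The RefSeq table lists 4 pseudogenes of Tomm7, 8 of Timm23 and 2 of Tomm20, so the share of reads assigned to these genes is uncertain. Tomm34, a cytosolic protein that binds precursor proteins and chaperones, did not pass as a gene sum, at 114, 111 and 108 CPM in INS-MOCK and 102, 109.7 and 103 CPM in INS-SMA (-0.083, adjusted p = 0.182), but its rows moved in opposite directions, as described further on.

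The core of TIM23 was lower while its motor subunit was higher. Timm17b (chromosome X, 15441651 to 15448403, minus strand) fell from 14.8, 16.5 and 16.2 CPM to 5.41, 5.78 and 5.76 CPM, a change of -1.49 log2 units (SE 0.12, adjusted p = 2.03e-04 by edgeR). Its paralogue Timm17a (chromosome 13, 52124635 to 52136127, minus strand) fell less, from 74.0, 70.5 and 76.5 to 42.9, 39.6 and 44.2 CPM, a change of -0.80 log2 units (SE 0.065, adjusted p = 2.10e-04 by edgeR). Both form the channel together with Timm23. Timm23 itself was at 153, 155 and 164 CPM in INS-MOCK and 112, 113 and 129 CPM in INS-SMA (-0.41, SE 0.069, adjusted p = 0.00376). Timm21, which links TIM23 to TOM and the respiratory chain, changed little (-0.20, adjusted p = 0.0495), and the call was lost when any library other than INS-SMA replicate 3 was left out (0.0624 to 0.0879) or RLE factors were used (0.0604). The receptor Timm50 did not pass (-0.27, adjusted p = 0.500). INS-SMA replicate 1 stood at 24.9 CPM and the other INS-SMA libraries at 52.7 and 52.2 CPM, within the INS-MOCK range of 46.0 to 56.0 CPM.

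Timm44 (chromosome 12, 2517006 to 2533706, plus strand) tethers the mitochondrial Hsp70 motor to the TIM23 channel. It was at 65.7, 63.6 and 62.1 CPM in INS-MOCK and at 121, 118 and 127 CPM in INS-SMA, a change of 0.94 log2 units (SE 0.048, adjusted p = 3.73e-05 by edgeR). All 3 INS-SMA libraries were above all INS-MOCK libraries. With annotated rows only, those that have an Ensembl transcript identifier, the change was 0.63 and did not pass (adjusted p = 0.0789), and its most abundant row alone gave 0.62 (adjusted p = 0.0885). Hspa9, the motor Hsp70, moved in the same direction, from 1052, 1084 and 1061 to 1451, 1514 and 1579 CPM (0.51, adjusted p = 1.82e-04), as did its exchange factor Grpel1 (0.38, adjusted p = 0.00420). The other listed motor genes did not pass. Pam16, a regulatory subunit, was at 15.0, 14.7 and 16.8 CPM in INS-MOCK and 13.4, 13.1 and 11.1 CPM in INS-SMA without overlap (-0.31, adjusted p = 0.0924). The J-proteins Dnajc19 (-0.78, adjusted p = 0.130) and Dnajc15 (-2.89, adjusted p = 0.185) and the second exchange factor Grpel2 (0.24, adjusted p = 0.857) overlapped between groups.

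Among the small TIM chaperones of the intermembrane space, all 6 tested members had a negative log2 fold change (all genes 48.6%). Those of Timm10 and Timm13 turned positive when some single libraries were left out. In 3 of the 6 members INS-SMA was lower without overlap (all genes 31.9%). At adjusted p below 0.05, 1 of the 6 fell and 0 rose (16.7% and 0%, all genes 27.0% and 28.1%). It was Timm8b (chromosome 8, 55037750 to 55039128, plus strand), at 22.3, 22.2 and 21.0 CPM in INS-MOCK and 10.6, 7.07 and 13.7 CPM in INS-SMA, a change of -1.06 log2 units (SE 0.25, adjusted p = 0.0144 by edgeR). Its paralogue Timm8a1 was at 4.87, 3.45 and 4.10 CPM in INS-MOCK and 1.86, 2.84 and 2.88 CPM in INS-SMA without overlap and did not pass (-0.71, SE 0.27, adjusted p = 0.0698). DESeq2 called it (0.0333), and adjusted p over the alternatives lay between 0.0333 and 0.174. Timm9 and Timm10 form the chaperone of carrier precursors. Timm9 did not pass (-0.25, adjusted p = 0.320). Timm10 was at 1.73, 1.93 and 1.84 CPM in INS-MOCK and 0.841, 2.84 and 1.21 CPM in INS-SMA (-0.16, SE 0.48, adjusted p = 0.802), with INS-MOCK and INS-SMA values overlapping. Timm10b was at 16.8, 15.8 and 17.4 CPM in INS-MOCK and 11.2, 14.8 and 14.4 CPM in INS-SMA (-0.31, SE 0.15, adjusted p = 0.130) and did not pass, nor did Timm13 (-0.067). In TIM22, the channel gene Timm22 was at 44.9, 50.9 and 51.4 CPM in INS-MOCK and 47.9, 53.5 and 56.5 CPM in INS-SMA (0.10, adjusted p = 0.393). Timm29 had 1489, 11 and 905 counts in INS-MOCK and 1644, 2613 and 1125 in INS-SMA. INS-MOCK replicate 2 stood apart for this gene, and its log2 fold change of 1.38 did not pass (adjusted p = 0.429; 0.80 and 0.259 without that library).

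**Figure D2:**
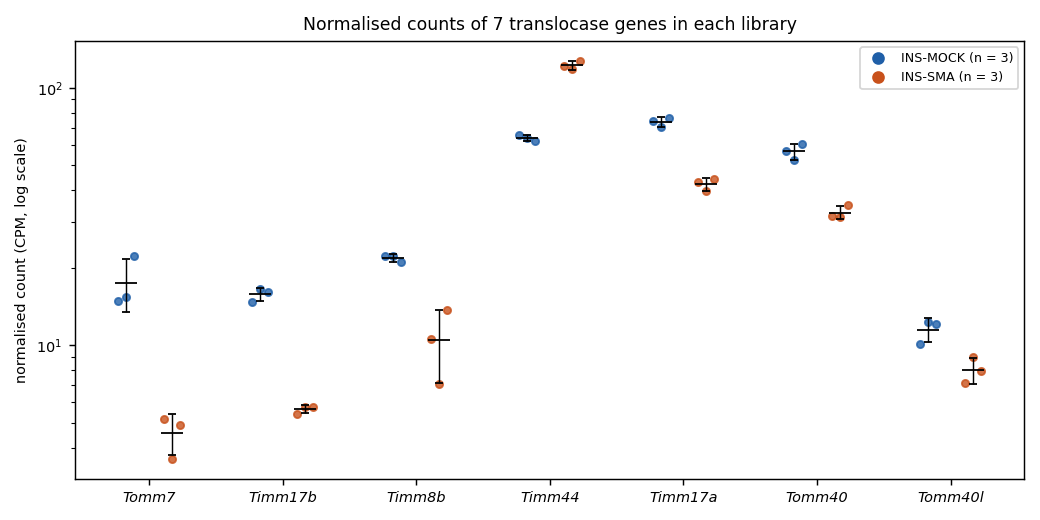
Normalised counts (CPM, logarithmic axis) of the 7 translocase genes with the largest changes by the naming rule, 1 point per library, with the mean and SD of each group in black. For 6 genes the INS-SMA points lie below all INS-MOCK points, and for Timm44 they lie above.

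The carriers that supply ATP synthesis were lower. Slc25a5 (chromosome X, 123404518 to 123407645, plus strand) encodes ADP/ATP carrier ANT2, the form of growing cells, and was at 695, 734 and 759 CPM in INS-MOCK and 209, 227 and 246 CPM in INS-SMA. No INS-SMA library came near an INS-MOCK library, and the fit gave a change of -1.68 log2 units (SE 0.071, adjusted p = 2.12e-05 by edgeR). Slc25a4 (chromosome 16, 49266903 to 49270698, plus strand), which encodes ANT1, the form of heart and muscle, was at 721, 752 and 807 CPM in INS-MOCK and 330.2, 351 and 377 CPM in INS-SMA, a change of -1.11 log2 units (SE 0.067, adjusted p = 6.84e-05 by edgeR). The RefSeq table lists 9 pseudogenes of Slc25a5 and 1 of Slc25a4, and reads may be divided between copies and between these similar genes. Slc25a3 (chromosome 7, 31816602 to 31824071, minus strand), which brings in phosphate, fell from 589, 545 and 511 to 265, 266 and 321 CPM (-0.95, SE 0.10, adjusted p = 5.01e-04).

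The calcium-regulated ATP-Mg/phosphate carriers, which set the size of the matrix adenine nucleotide pool, split. Slc25a24 fell from 86.1, 73.6 and 79.6 to 43.0, 45.5 and 45.4 CPM (-0.84, SE 0.073, adjusted p = 2.68e-04). Slc25a23 was at 47.4, 45.6 and 46.8 CPM in INS-MOCK and 51.3, 54.7 and 52.0 CPM in INS-SMA, and its small rise (0.18, SE 0.054, adjusted p = 0.0355) was not kept when any library other than INS-SMA replicate 1 was left out (0.0586 to 0.0994) or in its most abundant row (0.049, 0.838). Slc25a25 did not pass (0.39, adjusted p = 0.240), with INS-SMA replicate 2 at 59.7 CPM and INS-MOCK replicate 1 at 42.2 CPM above the rest of their groups.

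The largest rises of any tested carriers were in both pyrimidine nucleotide carriers, which bring the building blocks of mitochondrial DNA and RNA into the matrix. Slc25a33 (chromosome 5, 166701465 to 166726794, minus strand) went from 9.46, 10.2 and 11.8 CPM to 44.8, 49.9 and 40.9 CPM, a change of 2.11 log2 units (SE 0.13, adjusted p = 7.13e-05 by edgeR). Slc25a36 (chromosome 8, 104966124 to 104995725, minus strand) went from 11.2, 12.4 and 11.4 to 43.0, 40.7 and 43.2 CPM, a change of 1.86 log2 units (SE 0.082, adjusted p = 2.35e-05 by edgeR). In both, the lowest INS-SMA library was more than 3 times the highest INS-MOCK library. Of the other cofactor carriers, Slc25a17, a peroxisomal member that carries coenzyme A and adenine nucleotides, fell (-0.90, adjusted p = 0.00262; -0.47 and 0.0690 in annotated rows only). Slc25a16, linked to coenzyme A transport, fell from 109, 128 and 99.7 to 72.9, 61.7 and 66.3 CPM (-0.74, adjusted p = 0.00257), and the NAD carrier Slc25a51 fell slightly (-0.38, adjusted p = 0.00827). The carriers of S-adenosylmethionine (Slc25a26, -0.20), folate (Slc25a32, -0.16) and coenzyme A (Slc25a42, 0.49) did not pass, with adjusted p from 0.335 to 0.449.

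Carriers of organic acids went in opposite directions. Slc25a10 (chromosome 10, 109665682 to 109673143, plus strand), the dicarboxylate carrier that exchanges malate or succinate for phosphate, was at 183, 182 and 180.4 CPM in INS-MOCK and 410.1, 409 and 413 CPM in INS-SMA. The spread within each group was very small beside the difference, which was a change of 1.18 log2 units (SE 0.026, adjusted p = 4.39e-06 by edgeR). The citrate carrier Slc25a1 rose from 163, 152 and 158 to 238, 248 and 253 CPM (0.64, adjusted p = 9.76e-05), but with annotated rows only the change was 0.45 (adjusted p = 0.129). The 2-oxoglutarate/malate carrier Slc25a11, a part of the malate-aspartate shuttle, fell from 92.6, 98.2 and 102 to 55.8, 53.1 and 56.3 CPM (-0.83, SE 0.055, adjusted p = 9.97e-05). Slc25a21, the oxodicarboxylate carrier, had 11 counts in all and was not tested.

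Amino acid carriers were also divided, and by gene sum the glutamate carrier had the largest rise. Slc25a22 (chromosome 1, 214410417 to 214414897, minus strand), which imports glutamate with a proton, was at 40.1, 39.7 and 37.7 CPM in INS-MOCK and 88.4, 82.8 and 81.0 CPM in INS-SMA, a change of 1.10 log2 units (SE 0.058, adjusted p = 4.09e-05 by edgeR). In annotated rows only its log2 fold change was 0.64 (adjusted p = 0.00988), below those of Slc25a38 (1.17) and Slc25a44 (1.15). The glycine carrier Slc25a38, needed for haem synthesis, rose from 9.54, 9.55 and 10.0 to 16.9, 21.1 and 20.8 CPM (1.01, adjusted p = 0.00119). Slc25a44, a carrier of branched-chain amino acids, rose from 2.11, 1.30 and 1.41 to 3.24, 3.85 and 3.07 CPM (1.08, adjusted p = 0.0187), and its adjusted p was 0.0629 to 0.0648 without INS-MOCK replicate 2 or 3 or INS-SMA replicate 2. Slc25a20, which brings in acylcarnitines for fatty acid oxidation, fell from 95.9, 97.5 and 98.7 to 64.5, 70.0 and 71.4 CPM (-0.50, adjusted p = 5.46e-04). Both ornithine carriers fell, Slc25a2 by 1.08 on the log2 scale from a low level of 2.56, 2.51 and 2.52 CPM (adjusted p = 0.00923), and Slc25a15 by 0.37 (adjusted p = 0.0401). The call for Slc25a15 was lost without INS-MOCK replicate 2 or 3 or INS-SMA replicate 1 or 2 (0.0555 to 0.109). Slc25a29, a carrier of basic amino acids, did not pass (0.55, adjusted p = 0.101). The aspartate/glutamate carrier Slc25a12 had 159, 56 and 55 counts in INS-MOCK and 53, 0 and 36 in INS-SMA and did not pass (-1.33, adjusted p = 0.451). Its paralogue Slc25a13 was not among the named rows.

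**Figure D3:**
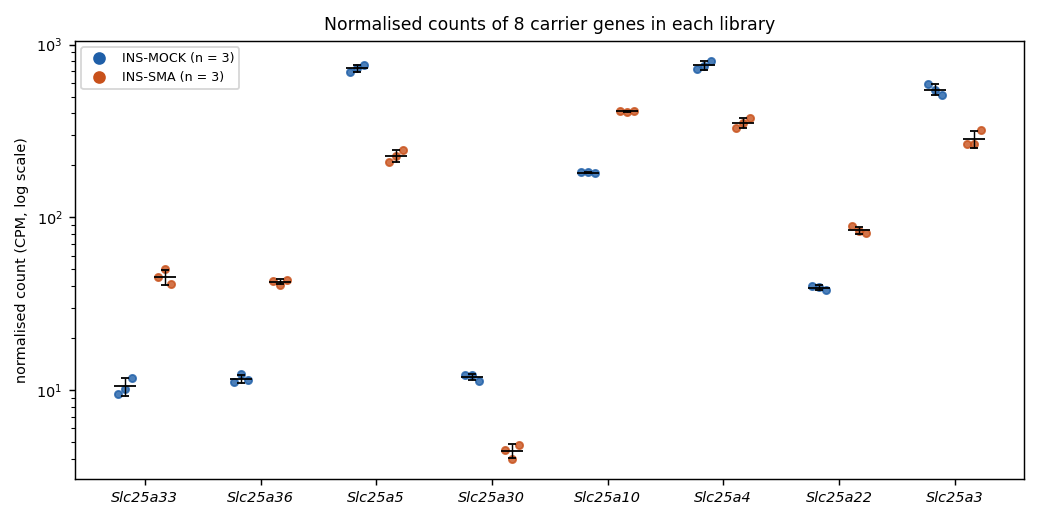
Normalised counts (CPM, logarithmic axis) of the 7 carrier genes with the largest changes by the naming rule and of Slc25a3, 1 point per library, with the mean and SD of each group in black. Slc25a33, Slc25a36, Slc25a10 and Slc25a22 are higher in all INS-SMA libraries, and Slc25a5, Slc25a30, Slc25a4 and Slc25a3 are lower in all of them.

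Both mitoferrin genes, whose products import iron, rose. Slc25a28 went from 48.2, 51.2 and 56.8 to 90.6, 92.7 and 98.3 CPM (0.85, SE 0.076, adjusted p = 3.08e-04), and Slc25a37 from 1.20, 0.986 and 0.556 to 2.58, 3.21 and 1.59 CPM (1.42, SE 0.42, adjusted p = 0.0316). The call for Slc25a37 was lost without INS-MOCK replicate 2 or 3 or INS-SMA replicate 1 or 2 (0.0777 to 0.0957). The glutathione carriers behaved less clearly. Slc25a40 fell from 33.7, 36.4 and 36.6 to 18.0, 18.9 and 18.7 CPM (-0.94, SE 0.076, adjusted p = 2.01e-04), but most of its counts lay outside annotated rows, and in annotated rows only the log2 fold change was -0.21 (adjusted p = 0.550). Slc25a39, with 8 pseudogenes in the RefSeq table, was at 298, 188 and 209 CPM in INS-MOCK and 153, 184 and 192 CPM in INS-SMA and did not pass (-0.40, SE 0.19, adjusted p = 0.141). INS-MOCK replicate 1 was above the other 5 libraries.

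Of the members related to uncoupling proteins, Slc25a30 (chromosome 15, 57813356 to 57834173, minus strand) fell from 12.1, 12.3 and 11.3 to 4.51, 3.99 and 4.82 CPM, a change of -1.42 log2 units (SE 0.14, adjusted p = 4.97e-04 by edgeR). Slc25a14 had 81, 0 and 62 counts in INS-MOCK and 22, 12 and 47 in INS-SMA and did not pass (-0.69, adjusted p = 0.702). Slc25a35, whose substrate is not firmly known, had the largest fall of any tested member, a change of -2.11 log2 units (SE 0.31, adjusted p = 0.00211 by edgeR), with 64, 43 and 55 counts in INS-MOCK and 10, 8 and 16 in INS-SMA. Its level of 2.64, 1.93 and 2.35 CPM in INS-MOCK was too low for the naming rule. Slc25a46, an outer membrane protein of mitochondrial dynamics, was at 183, 178 and 182 CPM in INS-MOCK and 179.7, 200.2 and 208 CPM in INS-SMA and did not pass (0.12, adjusted p = 0.163). Without INS-SMA replicate 1 it passed (0.17, 0.0160), and adjusted p lay between 0.0160 and 0.370 over the alternatives. Slc25a43 had 18, 2 and 6 counts in INS-MOCK and 14, 14 and 13 in INS-SMA and did not pass (0.84, adjusted p = 0.379). Its log2 fold change was 1.89 without INS-MOCK replicate 1 and 0.39 without replicate 2. Slc25a47 (0.73) did not pass, although it did without INS-MOCK replicate 2 (1.32, 0.0496, the lowest over its alternatives, which reached 0.465).

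The remaining members were too low to test. Among 7 carriers with at least 10 counts that the filter left out was Slc25a31, the ADP/ATP carrier of germ cells. It was without a count in INS-MOCK and had 7, 18 and 6 counts in INS-SMA, so it reached 10 counts only through INS-SMA. Its mean INS-SMA level was 3.83 times the mean INS-MOCK floor of 3 counts per library, without allowance for error in INS-SMA. Slc25a34 went the other way, with 13, 6 and 11 counts in INS-MOCK and 2, 0 and 0 in INS-SMA. Slc25a48 had 11, 0 and 0 counts in INS-MOCK and 0 in each INS-SMA library. The others, Slc25a6, Slc25a18, Slc25a21 and Slc25a52, had 11 to 29 counts in all. Timm8a2, Slc25a41, Slc25a45 and Slc25a54 were below 10 counts. RefSeq lists 80 protein-coding genes with matching symbols, and 10 of them, among them Slc25a13, Slc25a27 and Slc25a53, were not among the named rows.

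Ratios between related members within a library do not depend on scaling between libraries, and 9 of the 12 listed pairs could be compared. The ratios are not divided by transcript length, so only their differences between libraries were read. Slc25a4 had 1.04, 1.02 and 1.06 counts per count of Slc25a5 in INS-MOCK and 1.58, 1.55 and 1.53 in INS-SMA, a difference of 0.58 on the log2 scale. The ratio of Timm17a to Timm17b was 5.00, 4.26 and 4.73 in INS-MOCK and 7.93, 6.85 and 7.68 in INS-SMA, a difference of 0.68. That of Slc25a23 to Slc25a24 was 0.550, 0.620 and 0.587 in INS-MOCK and 1.19, 1.20 and 1.14 in INS-SMA, a difference of 1.01. In these 3 pairs the groups did not overlap. With 3 libraries against 3 this fixes the exact two-sided permutation p at 0.1, the smallest possible (adjusted over 9 pairs, 0.300). Non-overlap was not counted over other gene pairs, and over single tested genes it was 65.3%. The 6 other pairs overlapped between groups, with exact permutation p from 0.200 to 1.00. Among them was Slc25a33 to Slc25a36, both of which rose. Their log2 ratio differed by 0.25 between groups, or -0.24 in the most abundant rows.

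**Figure D4:**
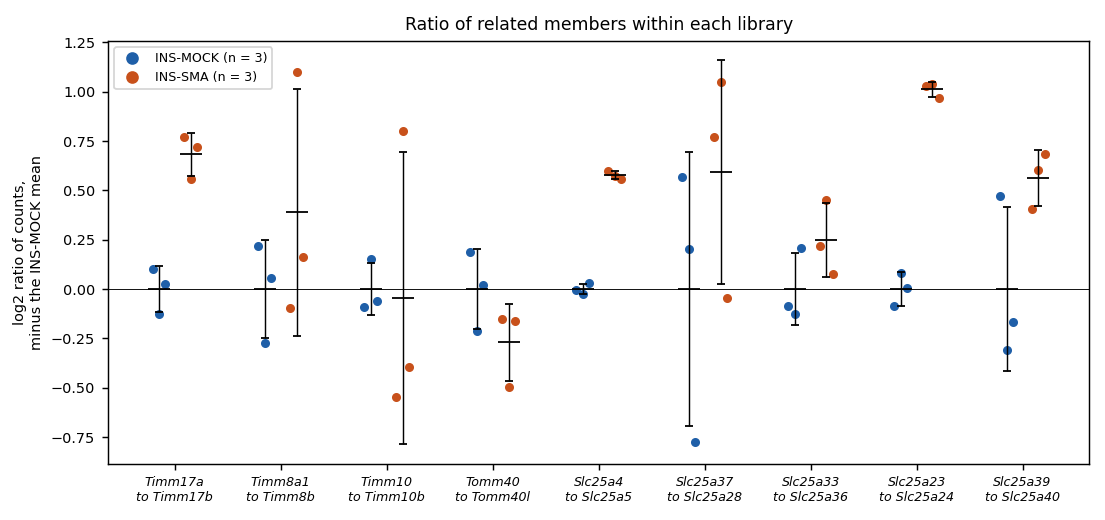
Log2 ratio of the counts of 2 related members in each library, with the INS-MOCK mean of the pair set to 0 (vertical axis), 1 point per library, and group means with SD in black. The INS-SMA points of Timm17a to Timm17b, Slc25a4 to Slc25a5 and Slc25a23 to Slc25a24 lie above all INS-MOCK points, and the other 6 pairs overlap.

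Several members hold rows named by the gene identifier and a number, with no Ensembl transcript identifier. The files do not say what these rows are. They took 14.2% to 14.6% of all named counts in INS-MOCK and 18.5% to 19.6% in INS-SMA. In Tomm34 their share of the gene's counts was 21.7, 21.1 and 21.0% in INS-MOCK and 52.9, 51.4 and 53.3% in INS-SMA. Its annotated row fell by 0.74 on the log2 scale (adjusted p = 7.10e-04 by edgeR) and its 3 other rows had more counts per tested count in INS-SMA, so the gene sum showed neither. In Slc25a22 the share was 11.6, 8.25 and 6.58% in INS-MOCK and 31.2, 45.3 and 35.3% in INS-SMA, and in Slc25a33 0, 8.37 and 16.3% and 39.9, 39.9 and 23.9%. Of 13 members with both kinds of row and at least 100 counts, the share was higher without overlap in 4 (Tomm34, Slc25a22, Slc25a33 and Slc25a10) and lower in 3 (Slc25a17, Slc25a28 and Slc25a40). Over all 3507 tested genes of this kind it was higher in 25.4% and lower in 7.73%. Groups of 3 libraries that do not overlap always give an exact two-sided permutation p of 0.1. That p therefore adds nothing for these 7 members. The comparison was chosen after the values were seen.

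**Figure D5:**
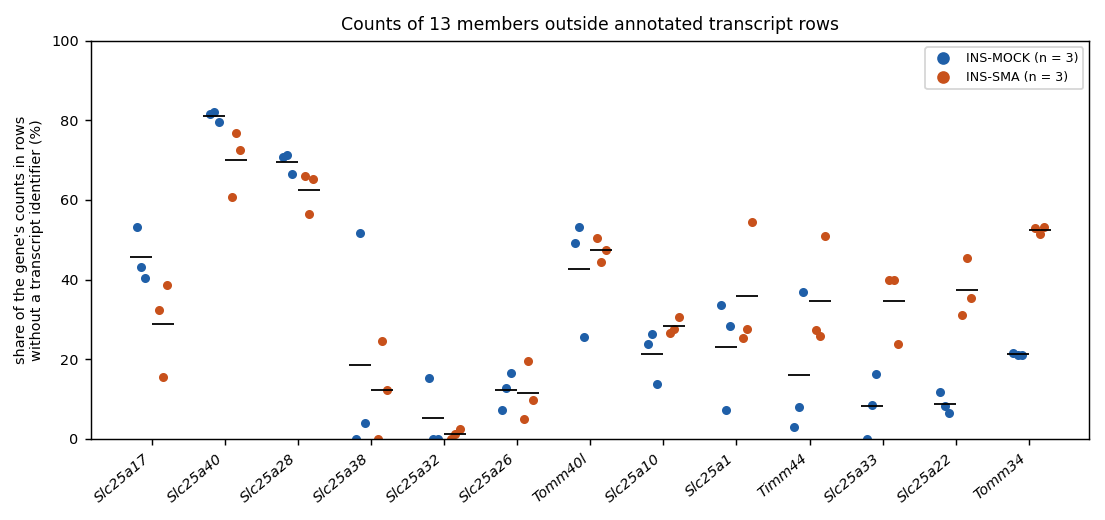
Share of each gene's counts that lies in rows without an Ensembl transcript identifier (percent) for the 13 members with both kinds of row, 1 point per library, with group means as black bars. Tomm34 stands out by 3 INS-MOCK points from 21.0% to 21.7% and 3 INS-SMA points from 51.4% to 53.3%, whereas Slc25a1, Slc25a38 and Timm44 vary widely within groups.

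Other genes of protein import outside the symbol rule were divided as well. Of 26 listed, 24 were tested, 7 rose and 6 fell (29.2% and 25%, all genes 28.1% and 27.0%), with a median log2 fold change of -0.22. Gfer, the oxidase of the disulfide relay that folds small TIM proteins, rose from 22.3, 21.1 and 24.8 to 75.6, 78.3 and 90.7 CPM (1.84, SE 0.10, adjusted p = 5.28e-05). The matrix protease Lonp1 also rose, from 400.3, 403 and 413 to 622, 608 and 621 CPM (0.61, SE 0.028, adjusted p = 2.72e-05). Xpnpep3, a peptidase that trims imported proteins, rose as a gene sum from 42.4, 48.7 and 45.4 to 69.2, 77.5 and 71.5 CPM (0.68, SE 0.077, adjusted p = 7.76e-04) but was at -0.18 in annotated rows only (adjusted p = 0.927). The matrix chaperonin Hspd1 (Hsp60) fell from 649.9, 671 and 693 to 302, 297 and 348 CPM (-1.09, SE 0.071, adjusted p = 8.78e-05), opposite to Hspa9. Romo1, a small inner membrane protein, fell from 26.6, 25.6 and 20.9 to 6.37, 6.06 and 7.39 CPM (-1.88, SE 0.15, adjusted p = 2.01e-04). Samm50, the core of the complex that assembles outer membrane barrels such as Tomm40, fell by 0.67 on the log2 scale (adjusted p = 0.00124). Its partner Mtx1 fell as a gene sum from 112, 113 and 121 to 67.4, 71.4 and 61.2 CPM (-0.79, SE 0.071, adjusted p = 3.02e-04), with a log2 fold change of 0.89 in annotated rows only (adjusted p = 0.185).

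Other listed genes of metabolite and ion entry, together with carrier-related proteins, were more often lower than higher. Of 19 listed genes 16 were tested, and 8 fell and 2 rose (50% and 12.5%, all genes 27.0% and 28.1%), with a median of -0.76. The outer membrane pores all fell. Vdac1 went from 458, 456 and 472 to 133, 145 and 135 CPM (-1.75, SE 0.043, adjusted p = 5.32e-06), and Vdac2 from 412, 431 and 428 to 202, 214 and 225 CPM (-0.99, SE 0.049, adjusted p = 3.52e-05). The change of Vdac3 was -0.72. Ucp2, an uncoupling protein of the same carrier family that is abundant in beta cells, fell from 713, 657 and 709 to 349, 362 and 389.6 CPM (-0.92, adjusted p = 7.27e-05). The carrier-related outer membrane insertases Mtch1 (-0.91) and Mtch2 (-0.87) also fell. Mpc1, a subunit of the pyruvate carrier, was at 18.2, 3.09 and 12.1 CPM in INS-MOCK and 1.92, 1.61 and 1.24 CPM in INS-SMA (-2.80, SE 0.68, adjusted p = 0.0155), which became 0.0542 without INS-SMA replicate 2 and 0.0574 without replicate 3. Its partner Mpc2 did not pass (-1.54, adjusted p = 0.209). The calcium uniporter gene Mcu did not pass (0.0055, adjusted p = 0.980), and Micu2, a regulator of the uniporter, rose from 40.6 ± 0.538 to 76.2 ± 3.62 CPM (SD, n = 3), a change of 0.91 log2 units (SE 0.055, adjusted p = 6.76e-05 by edgeR). Sfxn3, related to the serine carrier, rose slightly, from 42.2, 43.6 and 49.5 to 53.8, 56.1 and 64.9 CPM (0.37, SE 0.10, adjusted p = 0.0263). Its adjusted p was 0.0533 to 0.0663 without INS-MOCK replicate 1 or 2 or INS-SMA replicate 2 or 3.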

How the data were processed

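RNA sequencing counts were analysed from 3 INS-MOCK and 3 INS-SMA libraries, grouped by their titles. The authors deposited raw counts, whole numbers per transcript row, in 101905 rows, of which 35604 name a gene. HISAT, HISAT2, DESeq2 and the builds hg19 and rn6 appear, without roles, in the submitters' processing notes. No counting program, strand setting or annotation is named in the sources used here. The 66301 unnamed rows held 32.7 to 36.7% of a library's counts and were left out, so reads of a member in such rows are missing from its value, and a low value is not proof of low expression.

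Rows were summed per gene. edgeR 4.0.16 (filterByExpr, TMM factors, quasi-likelihood F-test, Benjamini-Hochberg adjustment over 13363 tested genes, threshold 0.05) was run in R 4.3.3 and had been tested on simulated data. Far fewer genes changed in the simulation than were called here (55.1% of tested genes), so it does not show how the test performs at that share. The simulated data were filtered by summed counts instead of filterByExpr, and changes were placed only in genes above a minimum level. The standard error (SE) is the log2 fold change divided by the square root of F. Ratios were tested by exact permutation in scipy 1.17.1. Chi-square per degree of freedom was 45.0 to 58.6 between replicates, above sampling noise. Floors cover counting error only.

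Members, lists and tests were chosen with earlier results of these data known. Full values were given for the 7 members per class with the largest changes among called genes with at least 5 CPM in the higher group and no overlap, for members of pairs, and for the 3 largest rises and falls of both lists of other genes. Other genes were named within their role, and single values of 2 genes are counted but not reported here. Alternatives were other scaling factors, DESeq2 1.42.0, other filters, row choices and library sizes, the replicate block and leaving out each library. Sequences are from RefSeq, and searches for longer promoter motifs are not reported here.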

Additional observations from a re-analysis of the deposited data

How the results depend on the processing

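Of 35 called members, 23 kept their direction and call under all 16 alternatives, 12 lost the call in at least 1 and 0 changed sign. The count of translocases that rose (1) was 2 with DESeq2 and 0 in the most abundant row and in annotated rows only, the latter added after the data were seen. The count of metabolite entry genes that rose (2) was 1 to 2 when 1 library was left out. All other counts of calls stayed within 1.5 times. Alternatives were run for the members and for the other genes that the naming rule chose. Among these reported genes, signs turned for members that had not passed and for Mtx1 (0.89 in annotated rows only) and Xpnpep3 (-0.18). Leaving out 1 library gave -0.83 to 0.14 for Timm10, -0.25 to 0.10 for Timm13, -0.43 to 0.011 for Timm50, -0.021 to 0.067 for Tomm70 and -0.20 to 3.11 for Tomm6. Timm13 was at 0.0032 in annotated rows only, Tomm70 at -0.0076 with upper-quartile factors and Tomm5 at 0.0013 in its most abundant row. The cause was not tested. Replicate numbers did not pair the libraries: deviations of same-numbered libraries correlated at -0.0131, 0.00260 and -0.0128, and 0 of 3 INS-MOCK libraries correlated best with its own number. With the replicate block, calls over all genes went from 7359 to 6294, 7 translocases and 12 carriers fell, 1 and 8 rose, and Slc25a14 was at 0.15. Members under 10 counts over all libraries were too low for any test at this depth.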
